A study of Mus musculus with 16 samples.

Results

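Hippocampal RNA of 8 hTau.P301S mice was compared with that of 8 WT mice, with NR as a covariate, over every gene that passed a filter on low counts. The filter left 17555 of the 54532 genes listed, and the fit used all 16 mice of the series. Each genotype held 4 mice that drank vehicle water and 4 that drank 6 mM NR (nicotinamide riboside, a precursor of NAD+). The comparison therefore asks which genes differ with genotype on average over the treatments, not in each of them. In hTau.P301S mice the Thy1 promoter, which is active in neurons, drives a human Tau transgene that holds the P301S mutation. The sample labels give mice of 12 months at the start, a treatment of 3 months and an age of 15 months at the end, whereas the study's text gives other ages, and no test used the age. The line stands for a single transgene in a single mouse line. The genetic background of the mice, whether the WT mice were littermates, and their sex are not given in the sources used here, so a difference between the lines and an effect of the transgene cannot be told apart.

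The 16 libraries held between 16490261 and 21915362 counts each. The mouse hTau.P301S replicate 1 stood apart from the other 15. In it 14.4% of the counts were mitochondrial, against 4.48% to 7.07% in the other mice, and 19467 genes were detected, against at least 22199. By their levels of Xist and Ddx3y, 5 of the 8 hTau.P301S mice and 2 of the 8 WT mice had the Y-linked Ddx3y above Xist. Values without that mouse, or with this pattern as a covariate (the sex covariate below), stand beside the results they move most.

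Tau, the product of Mapt, binds and stabilises microtubules in axons, and mutations such as P301S make it prone to aggregate in neurons. Many of the genes described here are processed pseudogenes. Such a copy arises when a messenger RNA is reverse-transcribed and inserted elsewhere in the genome, so that it resembles the spliced transcript of its parent gene and usually lacks a promoter of its own. Reads from a parent and from a near-identical pseudogene differ only at the few bases where the copies differ, and an assignment of reads between them is uncertain.

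The transgene itself is human and is not among the mouse genes counted. The mouse Mapt gene lay between 188 and 484 CPM (counts scaled to TMM-normalized library totals, median 439) in hTau.P301S mice and between 370 and 493 CPM (median 442) in WT mice. Its log2 fold change, here always hTau.P301S relative to WT, was -0.09 (SE, its standard error, 0.15, adjusted p = 0.905, edgeR's quasi-likelihood test), and the lowest level was that of hTau.P301S replicate 1. Thy1, a neuronal surface protein whose promoter drives the transgene, lay between 667 and 1640 CPM (median 824) in hTau.P301S mice and between 424 and 633.5 CPM (median 534) in WT mice. The genotypes did not overlap, and a two-sided exact permutation test within treatments gave p = 0.000408, the smallest it can give. The log2 fold change of Thy1 was 0.79 (SE 0.16) and its adjusted p over all genes was 0.0932 with edgeR, or 0.0142 without hTau.P301S replicate 1. With DESeq2, a second test, the adjusted p over all mice was 0.00106. Eva1c, which encodes a membrane protein of neurons and is the gene in the study's title, lay between 1.40 and 6.15 CPM in hTau.P301S mice and between 1.64 and 3.22 CPM in WT mice, and the genotypes overlapped (log2 fold change 0.16, adjusted p = 0.884). That value averages opposite signs, 0.78 without NR (adjusted p = 0.224) and -0.47 with NR (adjusted p = 1), and the interaction had an unadjusted p of 0.00649 and an adjusted p of 0.558.

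Over all 16 mice, 21 genes were called, 17 higher and 4 lower in hTau.P301S mice. A gene was called at an adjusted p under 0.05 (Benjamini-Hochberg) with an absolute log2 fold change above 0.5. The calls are 0.12% of the genes tested, 0.0968% higher and 0.0228% lower, and every gene with an adjusted p under 0.05 also passed the limit on size. At an unadjusted p under 0.05 there were 1361 genes (7.75%), 590 higher and 771 lower. The genotypes did not overlap for 18 of the 21 called genes. Over all genes they did not overlap for 34 (0.194%), 27 higher and 7 lower, or for 39 on unnormalized totals, 21 higher and 18 lower.

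**Figure D1:**
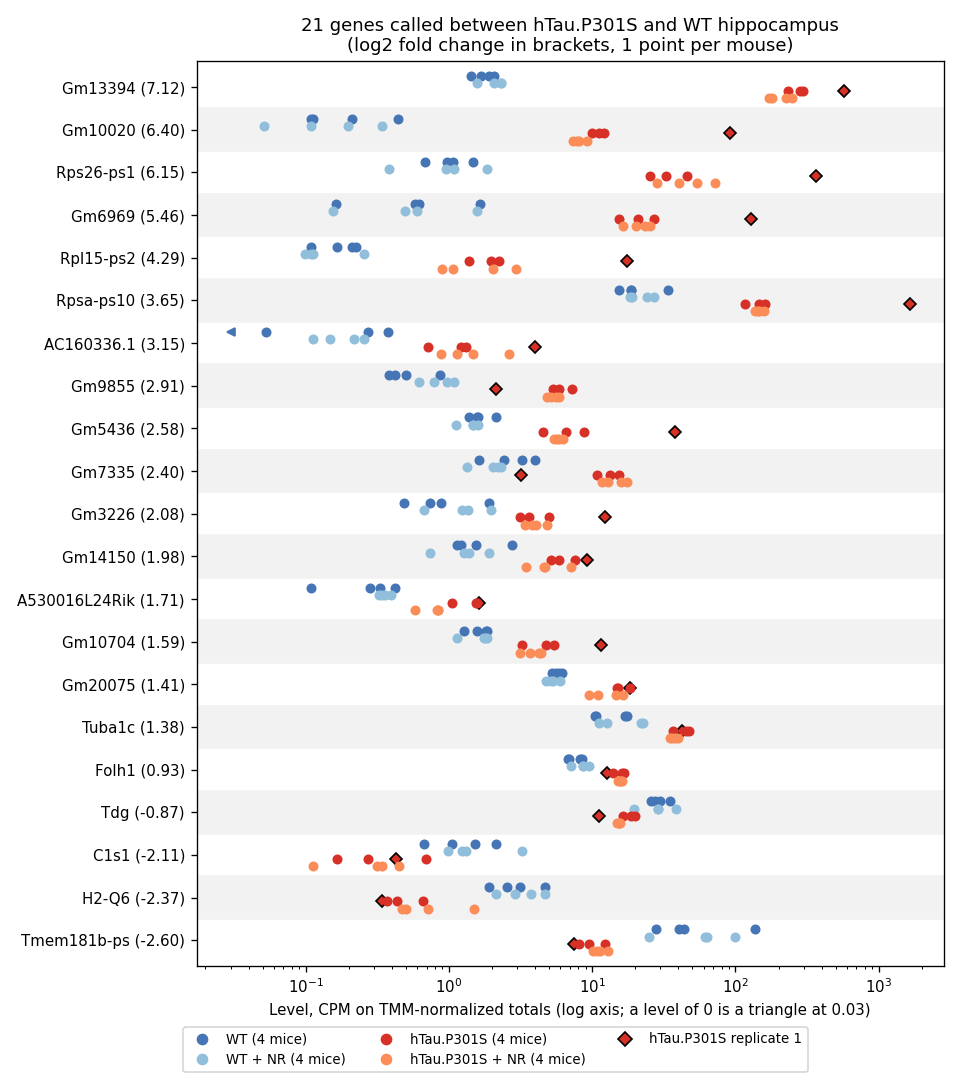
Level of each of the 21 called genes in each of the 16 mice, in CPM on a log axis, with mice coloured by group and hTau.P301S replicate 1 drawn as a diamond. The genotypes separate for 18 genes and overlap for Gm7335, Tdg and C1s1, and hTau.P301S replicate 1 lies far above the other mice for Gm13394 (569 CPM), Rpsa-ps10 (1651 CPM) and Rps26-ps1 (366 CPM).

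Of the 21 called genes, 13 were pseudogenes (61.9%), and so were 12 of the 17 higher in hTau.P301S mice, while pseudogenes are 4.40% of the genes tested. The share depended on the fit. With DESeq2 22 of 105 calls were pseudogenes (21%) and 73 were coding, and without hTau.P301S replicate 1 18 of 57 (31.6%) and 34. Of the tested pseudogenes 1.68% were called, against 0.047% of the protein-coding genes. Of the 13, 12 were processed pseudogenes. Their best matches, searched only among the protein-coding transcripts of the genes tested, had 97.0% to 99.9% identity. The parents are 10 housekeeping or widely expressed genes. Gapdh encodes a glycolytic enzyme, and Rps26, Rpl15 and Rpsa encode ribosomal proteins. Cox7a2l and Atp5o encode proteins of the mitochondrial respiratory chain and ATP synthase, Tuba1b an α-tubulin, and Tdg a DNA glycosylase of base excision repair. Scoc encodes a coiled-coil protein of the Golgi and autophagy, and Rtraf an RNA-binding factor.

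The stretches below show why these pairs are hard to tell apart, and are 60 bases each of the GENCODE transcripts on GRCm38, taken where pseudogene and parent differ inside the coding sequence of the parent. Capitals mark the bases that differ. Over the whole alignment Gm13394 differs from Gapdh at 1 of 1000 bases, Rps26-ps1 from Rps26 at 4 of 429, Gm10020 from Rpl15 at 2 of 612 and Gm9855 from Tdg at 9 of 1194. Gm13394 is at chr2:28934229-28934288 (minus strand) and Gapdh at chr6:125162981-125163040 (minus strand, exon 4).
Gm13394: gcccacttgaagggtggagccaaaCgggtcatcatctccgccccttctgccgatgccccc
Gapdh: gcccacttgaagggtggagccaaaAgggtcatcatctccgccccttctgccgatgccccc
Rps26-ps1 is at chr8:107439264-107439323 (minus strand) and Rps26 at chr10:128625220-128625279 (minus strand, exon 3).
Rps26-ps1: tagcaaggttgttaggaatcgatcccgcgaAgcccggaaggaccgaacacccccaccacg
Rps26: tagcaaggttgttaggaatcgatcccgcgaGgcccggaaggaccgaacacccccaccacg
Gm10020 is at chr15:52477997-52478056 (minus strand) and Rpl15 at chr14:18269984-18270043 (minus strand, exon 3).
Gm10020: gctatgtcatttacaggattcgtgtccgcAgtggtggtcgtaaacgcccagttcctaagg
Rpl15: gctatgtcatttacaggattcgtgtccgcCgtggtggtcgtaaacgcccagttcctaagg
Gm9855 is at chr10:42054195-42054254 (minus strand) and Tdg at chr10:82648579-82648638 (plus strand, exon 10), and this pair holds 4 of its 9 differences in the stretch shown.
Gm9855: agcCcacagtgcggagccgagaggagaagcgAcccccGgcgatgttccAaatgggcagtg
Tdg: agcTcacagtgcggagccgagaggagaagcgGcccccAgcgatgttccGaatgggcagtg

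Gm13394 (chromosome 2 of GRCm38, 28933610 to 28934609) had the smallest p of all genes. It lay between 171 and 569 CPM (median 241) in hTau.P301S mice and between 1.43 and 2.31 CPM (median 1.98) in WT mice. The lowest hTau.P301S mouse was far above the highest WT mouse, and the log2 fold change was 7.12 (SE 0.27, adjusted p = 1.41e-10, edgeR). Its parent is usually an abundant transcript, but Gapdh itself was listed at only 3.72 to 11.9 CPM in hTau.P301S mice and 4.68 to 78.6 CPM in WT mice. Gapdh and the 8 other copies of at least 95% identity that passed the filter together had a mean of 38 CPM in hTau.P301S and 49.9 CPM in WT mice, and none of the 9 was called. How reads that match several copies were counted is not given in the sources used here.

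The other called pseudogenes of ribosomal protein genes were also higher in hTau.P301S mice without overlap. Rps26-ps1 (chromosome 8) lay between 25.2 and 366 CPM (median 43.1) in hTau.P301S mice and between 0.38 and 1.85 CPM (median 1.02) in WT mice, with a log2 fold change of 6.15 (SE 0.63, adjusted p = 0.000133). Gm10020 (chromosome 15), a copy of Rpl15, lay between 7.35 and 91.5 CPM (median 9.59) against 0.05 to 0.44 CPM (median 0.15), a log2 fold change of 6.40 (SE 0.62, adjusted p = 6.9e-05). In each case the highest hTau.P301S level was that of replicate 1, and the other 7 hTau.P301S mice still lay above every WT mouse, from 25.2 to 72.4 CPM for Rps26-ps1 and from 7.35 to 12.2 CPM for Gm10020. Rpsa-ps10 (chromosome 3) lay between 116 and 1651 CPM in hTau.P301S mice and between 15.4 and 34.0 CPM in WT mice, with a log2 fold change of 3.65 (adjusted p = 0.0103), or 2.71 without hTau.P301S replicate 1. Rpl15-ps2 (chromosome 9), a second called copy of Rpl15, had a log2 fold change of 4.29 (adjusted p = 0.00356), or 3.43 without that mouse.

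Among the pseudogenes of other parents, Gm6969, a copy of Cox7a2l on chromosome 12, lay between 15.5 and 128 CPM (median 22.2) in hTau.P301S mice and between 0.15 and 1.64 CPM (median 0.59) in WT mice. The genotypes did not overlap (log2 fold change 5.46, SE 0.58, adjusted p = 0.000178). Gm9855, a copy of Tdg on chromosome 10, lay between 2.14 and 7.19 CPM (median 5.49) against 0.38 to 1.09 CPM (median 0.71), and here hTau.P301S replicate 1 was the lowest of its genotype (log2 fold change 2.91, SE 0.27, adjusted p = 5.97e-05). The remaining 5, Gm5436 (Atp5o), Gm14150 and Gm3226 (both Tuba1b), Gm7335 (Scoc) and Gm10704 (Rtraf), had log2 fold changes from 1.59 to 2.58. Of these, Gm7335 overlapped between genotypes, because hTau.P301S replicate 1 at 3.16 CPM lay below the highest WT mouse at 4.0 CPM, while the other 7 hTau.P301S mice lay between 10.9 and 17.4 CPM. Without hTau.P301S replicate 1 all 12 were called.

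The parents themselves did not show the same pattern. Of the 10 parents, only Tdg was called, and it was lower in hTau.P301S mice. The other 9 had adjusted p-values from 0.233 to 0.920. Leaving out hTau.P301S replicate 1, the hTau.P301S mean was below the WT mean for every parent but Rtraf (53.6 against 53.4 CPM). It was 289 ± 33.8 CPM (SD) against 426 ± 123.4 CPM for Rpsa, which was at 2904 CPM in that mouse. For Scoc it was 90.7 ± 9.11 CPM against 119 ± 15.4 CPM. DESeq2 without that mouse called Rpsa lower, at -0.57. When the counts of each called pseudogene were added to its parent, an alternative chosen after seeing the data, the summed levels of 9 of the 10 were not called. This cannot show that the totals were equal. For some pairs the pseudogene was too small a part of the sum to move it much. Its mean part in hTau.P301S mice was 2.92% for Tuba1b and 6.85% for Rtraf, for example. The sum of Rps26 and Rps26-ps1 had a log2 fold change of 0.97 (SE 0.56, adjusted p = 0.691), and that of Rpsa and Rpsa-ps10 one of 0.85 (SE 0.51, adjusted p = 0.695). Leaving out hTau.P301S replicate 1, the mean sum for Rpsa and Rpsa-ps10 was 433 ± 45.2 CPM (SD) over 7 hTau.P301S mice and 447 ± 128.8 CPM over 8 WT mice. For Rps26 and Rps26-ps1 it was 161 ± 22.2 CPM against 167 ± 56.6 CPM. The sum of Gapdh and Gm13394 was the exception, at 239 ± 47.7 CPM against 17.5 ± 25.3 CPM, with a log2 fold change over all 16 mice of 4.24 (SE 0.48, adjusted p = 0.000901).

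The share of the summed level that was counted at the pseudogene differed between the genotypes. Since these pseudogenes were called in the same mice, the shares are a description with no test. For Rpsa-ps10 the share lay between 30.7% and 36.2% (median 34.4%) in hTau.P301S mice and between 3.49% and 5.87% (median 5.06%) in WT mice. For Rps26-ps1 it lay between 17.9% and 36.7% (median 21.3%) against 0.318% to 1.14% (median 0.614%). The share in hTau.P301S replicate 1 was the highest of its genotype for Rpsa-ps10 and the lowest for Rps26-ps1, although its levels in CPM stood far above those of the other mice for both. For Gm6969 the share lay between 13.1% and 18.6% against 0.109% to 1.30%, and for Gm9855 between 16.1% and 27.4% against 1.40% to 3.90%. The shares did not overlap between the genotypes for any of the 10 parents.

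**Figure D2:**
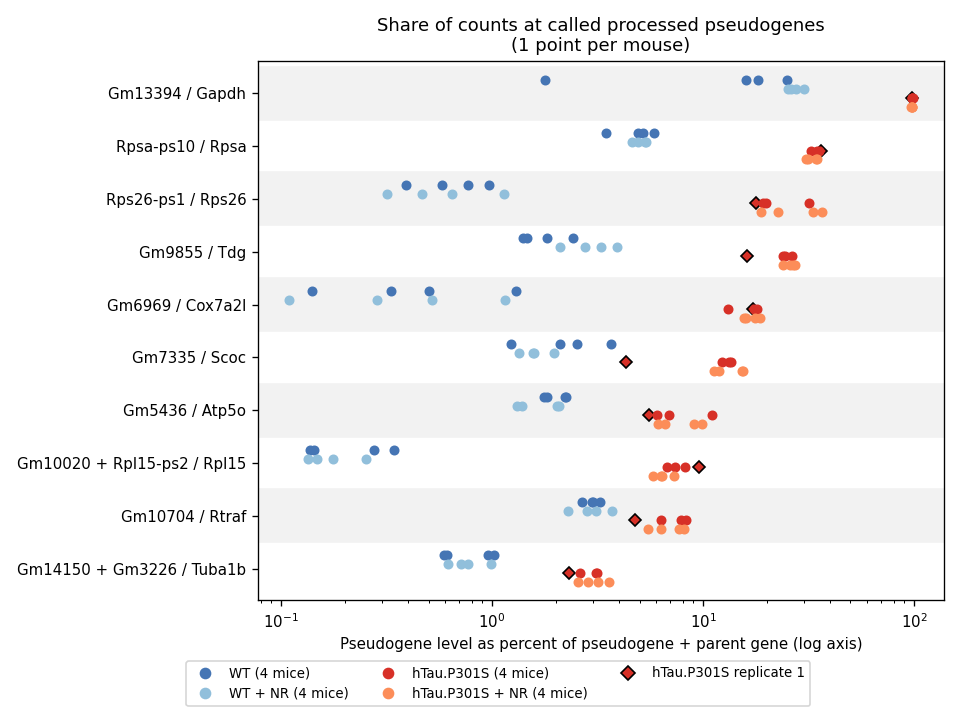
Level at each called processed pseudogene as a percent of pseudogene plus parent gene, on a log axis, with 1 point per mouse coloured by group and hTau.P301S replicate 1 as a diamond. The 8 hTau.P301S mice lie to the right of all 8 WT mice in each of the 10 rows, closest for Gm7335 and Scoc, where hTau.P301S replicate 1 is at 4.31% and the highest WT mouse at 3.67%.

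Of the 5 other genes higher in hTau.P301S mice, 4 were protein coding and 1 was a long noncoding RNA. Folh1 (chromosome 7), which encodes a glutamate carboxypeptidase of astrocytes that splits the neuropeptide NAAG, lay between 12.7 and 16.7 CPM (median 15.8) in hTau.P301S mice and between 6.76 and 9.58 CPM (median 8.37) in WT mice. The levels were tight within each genotype and apart between them, with a log2 fold change of 0.93 (SE 0.11, adjusted p = 0.000396). Tuba1c (chromosome 15), an α-tubulin, lay between 34.9 and 47.3 CPM (median 39.0) in hTau.P301S mice and between 10.4 and 22.5 CPM (median 14.8) in WT mice, again without overlap (log2 fold change 1.38, SE 0.18, adjusted p = 0.00111). It is 97.5% to 97.9% identical to the called Tuba1b pseudogenes Gm14150 and Gm3226 over the aligned bases, so its level is uncertain in the same way. The abundant tubulin genes Tuba1a and Tuba1b were not called, with log2 fold changes of 0.10 (adjusted p = 0.935) and 0.15 (adjusted p = 0.889). Gm20075 (chromosome 13), a predicted coding gene, lay between 9.47 and 18.5 CPM (median 15.0) against 4.78 to 6.11 CPM (median 5.48), a log2 fold change of 1.41 (SE 0.13, adjusted p = 6.2e-05). The predicted coding gene A530016L24Rik (chromosome 12) and the noncoding AC160336.1 (chromosome 14) were scarce, with at most 8 counts in any WT mouse, and had log2 fold changes of 1.71 (adjusted p = 0.0280) and 3.15 (adjusted p = 0.0146). Leaving out 1 mouse at a time ended the call of A530016L24Rik in 11 of 16 fits, of the pseudogene Gm3226 in 8, and of AC160336.1 in 1.

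The 4 genes lower in hTau.P301S mice were 1 pseudogene and 3 coding genes. Tmem181b-ps (chromosome 17), an unprocessed pseudogene with 98.8% identity to Tmem181a, lay between 7.52 and 12.9 CPM (median 10.4) in hTau.P301S mice and between 25.1 and 137 CPM (median 52.6) in WT mice, with a log2 fold change of -2.60 (SE 0.32, adjusted p = 0.000967). Its WT levels spread over a far wider range than its hTau.P301S levels, and Tmem181a itself was not called (log2 fold change -0.10, adjusted p = 0.907). H2-Q6 (chromosome 17), a nonclassical class I gene of the major histocompatibility complex (MHC), lay between 0.34 and 1.51 CPM (median 0.49) against 1.91 to 4.68 CPM (median 3.00), without overlap (log2 fold change -2.37, SE 0.31, adjusted p = 0.00135). C1s1 (chromosome 6), which encodes a protease of the first complement component, lay between 0.11 and 0.69 CPM (median 0.33) against 0.67 to 3.22 CPM (median 1.27). The highest hTau.P301S mouse lay just above the lowest WT mouse, and its adjusted p of 0.0494 (log2 fold change -2.11, SE 0.39) was the largest among the calls. It was lost in 12 of the 16 fits that left out 1 mouse.

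Tdg, the fourth gene, removes thymine and other damaged bases from DNA. It lay between 11.1 and 20.0 CPM (median 15.5) in hTau.P301S mice and between 19.5 and 38.5 CPM (median 28.8) in WT mice, and the highest hTau.P301S mouse lay above the lowest WT mouse (log2 fold change -0.87, SE 0.14, adjusted p = 0.0146). With the counts of its pseudogene Gm9855 added, the log2 fold change was -0.49 (SE 0.15, adjusted p = 0.458), so the call was lost.

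The called genes were spread over 12 chromosomes. Chromosomes 12 and 17 held 3 of them each (14.3%), against 3.75% and 4.69% of the genes tested. Chromosomes 2, 3, 10, 13 and 15 held 2 each (9.52%). Counts this small cannot show a concentration on a chromosome. Only H2-Q6 and Gm7335, both on chromosome 17, had another called gene within 5 Mb. Further genes, called without hTau.P301S replicate 1, also lay within 5 Mb of a called gene. Rps18, Ring1, H2-Ea-ps and H2-D1 lay near H2-Q6 and Gm7335, Dynlt1b near Tmem181b-ps, and C1rb and Scnn1a near C1s1. The share of all genes tested that lie within 5 Mb of a called gene was not computed. These positions are therefore a description and cannot show clustering. Of the 21, 8 were not called when the Xist and Ddx3y pattern was a covariate, namely Tdg, Gm5436, A530016L24Rik, Gm3226, AC160336.1, Rpsa-ps10, Gm10704 and C1s1, with adjusted p-values from 0.0847 to 0.190. Their log2 fold changes kept their sign, and moved to 3.10 from 3.65 for Rpsa-ps10 and to 2.85 from 3.15 for AC160336.1. Smaller moves were, for example, to 1.65 from 1.71 for A530016L24Rik, to 1.47 from 1.59 for Gm10704, to -0.79 from -0.87 for Tdg and to -1.89 from -2.11 for C1s1. The 13 left were all among the 21. In the 9 mice with Xist above Ddx3y alone, 11 genes were called, 9 of them among the 21. The 7 mice with Ddx3y above Xist include only 2 WT mice, and in them edgeR called 0 of 19075 genes, with 677 at an unadjusted p under 0.05. The log2 fold changes there were 7.05 for Gm13394, 6.65 for Rps26-ps1, 6.61 for Gm10020 and 0.80 for Folh1.

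Without NR and with NR, the comparison rests on different mice, although a single fit of all 4 groups served both. In mice without NR, 36 genes were called (0.205%), 28 higher (0.159%) and 8 lower (0.0456%), and 3177 had an unadjusted p under 0.05 (18.1%), 10.9% higher and 7.24% lower. In mice with NR, 7 were called (0.0399%), all higher, and 328 had an unadjusted p under 0.05 (1.87%), 0.741% higher and 1.13% lower. That is fewer genes than chance alone would give at this limit. The fit estimates the spread of each gene from all 4 groups, hTau.P301S replicate 1 included, so p-values with NR may be too large. The counts therefore cannot show that the genotype difference was smaller with NR. The 7 were Gm13394, Gm20075, Gm7335, Gm9855, Gm10020, Rps26-ps1 and Gm6969, all among the 21. All 21 had the same sign in both treatments, but they were chosen on all these mice. The difference between the treatments was tested as an interaction, and edgeR called 0 genes, with 1390 (7.92%) at an unadjusted p under 0.05. Among the 21, the smallest interaction p-values were those of Gm13394 (log2 fold change 7.61 without NR and 6.64 with NR, unadjusted p = 0.0173, adjusted p = 0.558), A530016L24Rik (2.32 and 1.10, unadjusted p = 0.0340) and Rpsa-ps10 (4.58 and 2.72, unadjusted p = 0.0645). The mice without NR include hTau.P301S replicate 1, at 1651 CPM for Rpsa-ps10 against at most 161 CPM in the other hTau.P301S mice. Leaving that mouse out of the additive fit gave Rpsa-ps10 a log2 fold change of 2.71.

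**Figure D3:**
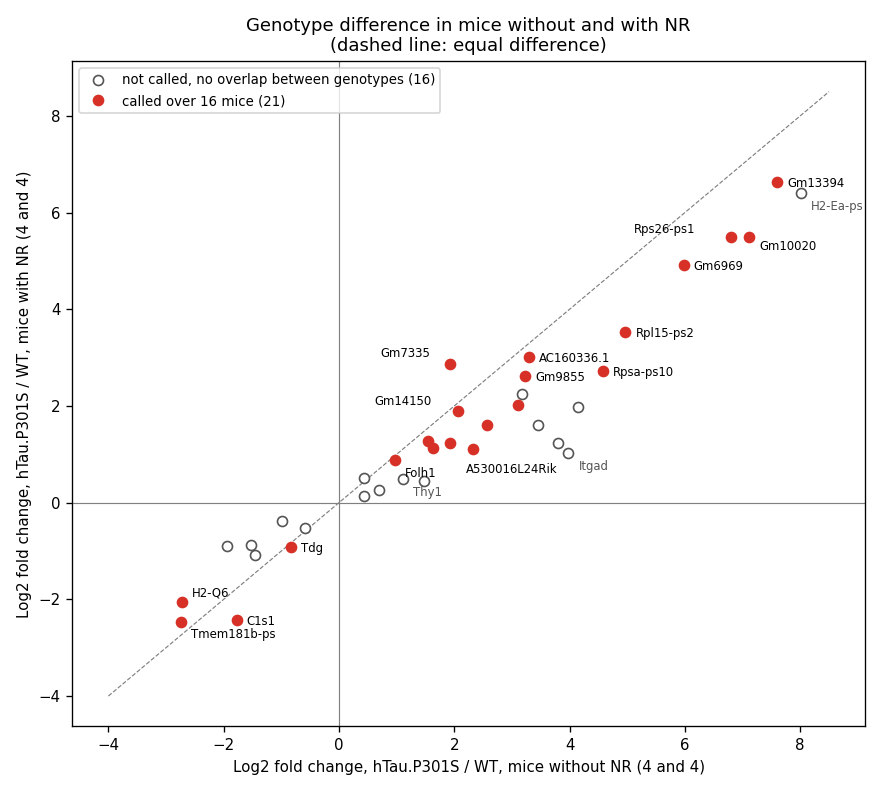
Log2 fold change of hTau.P301S relative to WT in the 8 mice without NR (x axis) and the 8 mice with NR (y axis), for the 21 called genes (filled) and the 16 genes that did not overlap between genotypes but were not called (open), with a dashed line where both are equal. All called genes lie in the quadrants of equal sign, and most of the large positive values lie below the line, such as Rpsa-ps10 at 4.58 and 2.72. The mice without NR include hTau.P301S replicate 1, the highest of its genotype for Rpsa-ps10 at 1651 CPM.

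The other genes were compared between the treatments without the 21. Of the 3156 with an unadjusted p under 0.05 without NR, 49.1% had the same sign with NR, and 1.84% also had an unadjusted p under 0.05 there with that sign. Over all genes that were not called the values were 46.2% and 1.13%. Of the 307 with an unadjusted p under 0.05 with NR, 64.8% had the same sign without NR and 18.9% also had an unadjusted p under 0.05, against 46.2% and 8.85% over all genes not called. Leaving out hTau.P301S replicate 1, 2603 had an unadjusted p under 0.05 without NR, and 66.0% of these had the same sign with NR, against 58.2%.

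Of the 34 genes without overlap, 16 were not called by edgeR, and 3 are named here after their values were seen. DESeq2 over the same mice called these 3, with adjusted p-values of 2.17e-08 (H2-Ea-ps), 3.7e-05 (Baiap2l1) and 0.000708 (Itgad). H2-Ea-ps (chromosome 17), a class II MHC gene that is functional only in some inbred strains, had no count in any of the 8 WT mice and lay between 0.22 and 5.13 CPM in hTau.P301S mice. Taken against a floor of 3 counts over the 8 WT mice, it was at least 58.2-fold higher in hTau.P301S mice, or at least 30.0-fold higher without replicate 1 (adjusted p = 0.0705, or 0.0152 without that mouse). Baiap2l1, which encodes an adaptor between membrane and actin, lay between 11.7 and 37.2 CPM against 0.72 to 10.7 CPM (log2 fold change 2.71, adjusted p = 0.0827). Itgad, an integrin subunit of myeloid cells, lay between 0.34 and 3.07 CPM against 0.05 to 0.28 CPM (log2 fold change 2.50, adjusted p = 0.0938). Most of that difference was in mice without NR, at 3.98 (adjusted p = 0.00258, called there) against 1.02 with NR (adjusted p = 1), with an unadjusted interaction p of 0.00074 and an adjusted one of 0.558.

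Leaving out hTau.P301S replicate 1 gave 57 calls among 17897 genes, 28 higher and 29 lower (0.318%, 0.156% and 0.162%), and all 21 genes were among them. Of the 36 others, 3 are described here. H2-D1, a classical class I MHC gene, lay between 28.8 and 80.8 CPM (median 37.5) in hTau.P301S mice and between 42.0 and 89.4 CPM (median 75.8) in WT mice. The highest hTau.P301S level was that of replicate 1, near the top of the WT range. The log2 fold change of H2-D1 was -0.78 (adjusted p = 0.323) over all mice and -0.96 (adjusted p = 0.0142) without replicate 1. The haemoglobin genes Hbb-bs and Hba-a1, which are expressed in red blood cells, had log2 fold changes of -2.37 (adjusted p = 0.190) and -2.44 (adjusted p = 0.0902) over all mice, and -3.01 (adjusted p = 0.0115) and -2.85 (adjusted p = 0.0117) without replicate 1.

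**Figure D4:**
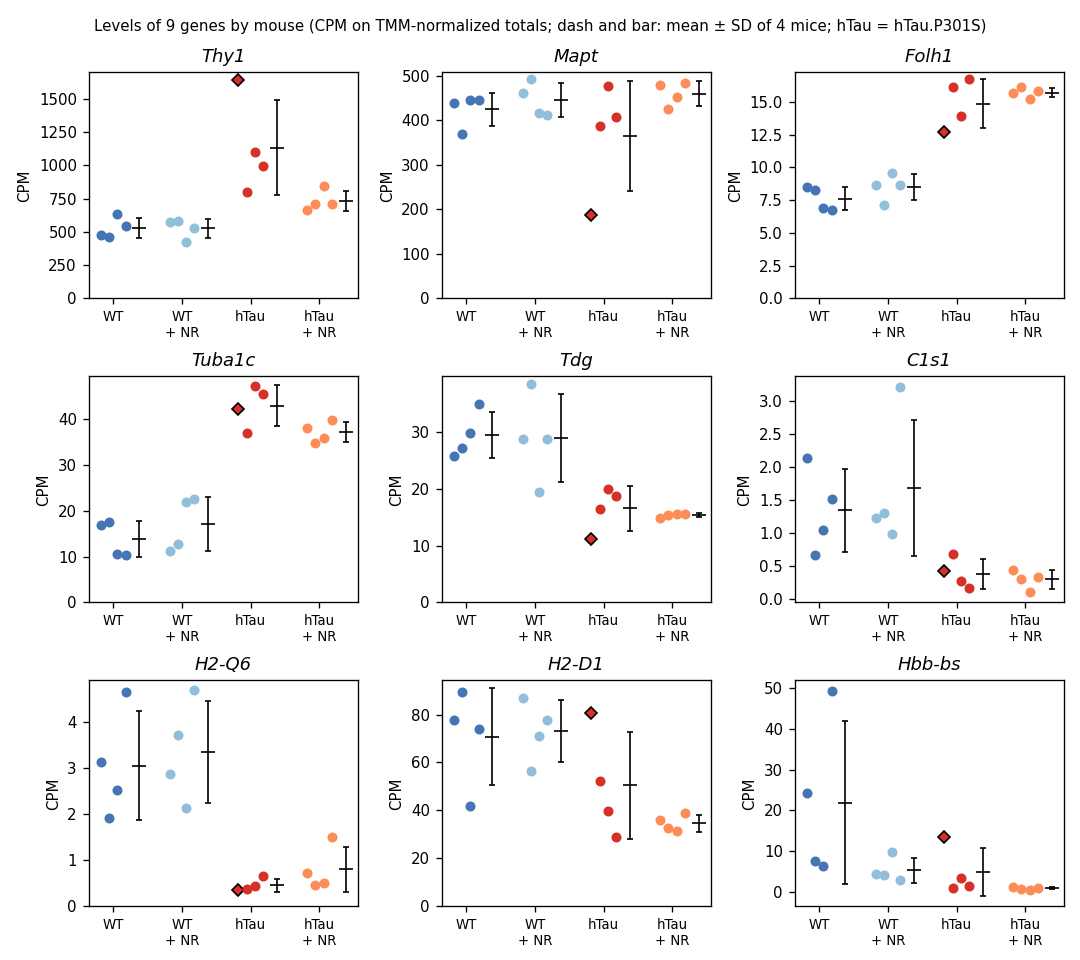
Level in CPM of Thy1, Mapt, Folh1, Tuba1c, Tdg, C1s1, H2-Q6, H2-D1 and Hbb-bs in each mouse, by group, with a dash and bar for the mean ± SD of 4 mice and hTau.P301S replicate 1 as a diamond. Thy1, Folh1, Tuba1c and H2-Q6 separate the genotypes in both treatments, Mapt does not, and for H2-D1 hTau.P301S replicate 1 lies at 80.8 CPM, within the WT range of 42.0 to 89.4 CPM.

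The gene lists that follow describe cell types and pathways by their counts and medians. Over all genes the median log2 fold change was 0.01, and 3.36% had an unadjusted p under 0.05 and were higher, 4.39% and were lower. With the sex covariate 353 genes were higher and 573 lower at an unadjusted p under 0.05, and without hTau.P301S replicate 1 972 and 1409. In bulk tissue, fewer cells of a type and less RNA per cell cannot be told apart.

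Disease-associated microglia genes, which microglia raise around aggregates and dying neurons, were higher in hTau.P301S mice for all 20 genes tested. None was called by edgeR, while DESeq2 over the same mice called Clec7a (adjusted p = 0.010) and Itgax (adjusted p = 0.011). DESeq2 gave no adjusted p for some members, such as Fth1, Ctsd and Ccl6. With edgeR 9 had an unadjusted p under 0.05, and the median log2 fold change was 0.91. Clec7a, a pattern recognition receptor, lay between 1.5 and 27.2 CPM (median 7.37) in hTau.P301S mice and between 0.11 and 10.2 CPM (median 0.97) in WT mice, with a log2 fold change of 2.65 (adjusted p = 0.376). The integrin subunit Itgax had a log2 fold change of 2.25 (adjusted p = 0.366), while the receptor Trem2 (1.42, adjusted p = 0.661) and its adaptor Tyrobp (1.75, adjusted p = 0.666) had an unadjusted p above 0.05. Much of this rested on 1 mouse. The summed level of the list was 31700 CPM in hTau.P301S replicate 1, against at most 7300 CPM in WT mice and a median of 6650 CPM in hTau.P301S mice. Without it the median was 0.30 and 5 genes had an unadjusted p under 0.05. It was 1.67 in mice without NR and 0.10 in mice with NR, and with the sex covariate it was 0.65, with 4 genes at an unadjusted p under 0.05.

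Homeostatic microglia genes were also higher for all 12 tested, with a median of 0.27, and 2 had an unadjusted p under 0.05, among them the growth factor receptor Csf1r (log2 fold change 0.33, adjusted p = 0.583). Leaving out hTau.P301S replicate 1 gave a median of 0.11, and 1 gene had an unadjusted p under 0.05 there, as with the sex covariate. The microglial markers P2ry12 and Tmem119 had log2 fold changes of 0.19 and 0.21. Lysosomal genes were higher for all 19, with 7 at an unadjusted p under 0.05 and a median of 0.31, or 0.11 without that mouse. With the sex covariate 3 had an unadjusted p under 0.05 and the median was 0.25. The protease gene Ctsb had a log2 fold change of 0.30 (adjusted p = 0.586) and Ppt1, a palmitoyl thioesterase, one of 0.32 (adjusted p = 0.473).

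Complement genes went both ways. Of 13, 4 were higher and 3 lower at an unadjusted p under 0.05. Their summed level was 3300 CPM in hTau.P301S replicate 1, against at most 765 CPM in WT mice. Without that mouse 3 were higher and 3 lower, and the median log2 fold change went from 0.207 to 0.185. C1qa, 1 of the 4, was at 1226 CPM in that mouse and at most 141.6 CPM in any other. Its log2 fold change of 1.485 was 0.50 without it. C4b, whose product is cleaved in the classical pathway, lay between 143 and 554 CPM (median 232) in hTau.P301S mice and between 50.1 and 315 CPM (median 99.8) in WT mice (log2 fold change 1.28, adjusted p = 0.396). C3ar1, a receptor for a complement fragment, had a log2 fold change of 1.38 (adjusted p = 0.347), and DESeq2 over the same mice called it (adjusted p = 0.03115). Without hTau.P301S replicate 1 the log2 fold changes were 1.03 for C4b and 1.05 for C3ar1. Beside the called C1s1, the protease gene C1ra was at -1.15 (adjusted p = 0.421). C1rb, a related gene outside the list, was at 3.46 (adjusted p = 0.0575).

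Astrocyte genes were higher for 13 of 16, with 2 at an unadjusted p under 0.05 (1 with the sex covariate, 3 without hTau.P301S replicate 1) and a median of 0.28. They were Gfap, the intermediate filament of reactive astrocytes, between 666 and 2101 CPM (median 1298) against 317 to 2213 CPM (median 572), and Serpina3n, a secreted protease inhibitor, between 43.6 and 174 CPM (median 125) against 32.9 to 120 CPM (median 43.8). The ranges of both overlapped widely. Gfap had a log2 fold change of 0.81 (adjusted p = 0.593) and Serpina3n one of 1.22 (adjusted p = 0.287). DESeq2 over the same mice called Serpina3n (adjusted p = 0.01995), as did limma voom with sample weights (adjusted p = 0.04837). Myelin genes were higher for 14 of 15, of which only Cldn11 had an unadjusted p under 0.05, and interferon-stimulated genes had none among 15.

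MHC genes were lower for 12 of 15, with 5 lower and 1, H2-Ea-ps, higher at an unadjusted p under 0.05. The median log2 fold change was -0.45. It was -0.54 without hTau.P301S replicate 1, with 9 lower at an unadjusted p under 0.05, and -0.34 with the sex covariate, with 3 lower. H2-Q6 was the called member, H2-K1, a classical class I gene, had a log2 fold change of -0.62 (adjusted p = 0.557), and H2-Q7 one of -1.51 (adjusted p = 0.488). The class I genes resemble each other closely, and the split of reads among them is uncertain.

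Genes of endothelium, pericytes and blood were lower for all 12, 7 of them at an unadjusted p under 0.05, and the median was -0.84, or -0.75 without hTau.P301S replicate 1. None was called by edgeR over all mice, while DESeq2 called Hbb-bs (adjusted p = 0.00143), Hba-a1 (0.000163), Alas2 (0.00876) and Hbb-bt (0.0495). Kdr, a receptor for vascular endothelial growth factor, lay between 2.31 and 14.7 CPM (median 11.9) against 10.5 to 34.6 CPM (median 18.4), a log2 fold change of -1.02 (adjusted p = 0.424), while the endothelial marker Pecam1 had an unadjusted p above 0.05 (-0.30). Of the 7, 5 are genes of red blood cells, namely Hbb-bs, Hbb-bt, Hba-a1, Hba-a2 and Alas2, which serves haem synthesis.

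Markers of tissue next to the hippocampus varied widely between mice. Choroid plexus genes were lower for all 13, with a median of -1.60, and 2 had an unadjusted p under 0.05 (1 without hTau.P301S replicate 1, 0 with the sex covariate). Their summed level ran from 122 to 14800 CPM in WT and from 221 to 6410 CPM in hTau.P301S mice. Ttr, the main secreted product of the choroid plexus, ran from 0.74 to 9045 CPM in WT mice alone. Striatal genes were lower for all 12 with none at an unadjusted p under 0.05, and their median changed sign between mice without NR (-2.39) and with NR (0.54). Single mice stood out in both. Drd1, a striatal marker, was at 90.0 CPM in WT replicate 2, against 5.5 to 5.6 CPM in the other WT mice without NR. Its highest hTau.P301S level was 28.7 CPM, in hTau.P301S + NR replicate 4. The part of such tissue in the genotype differences was not tested.

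For genes of RNA processing, the subject of the study, no member was called by edgeR. With limma voom and sample weights Snrpf was called (log2 fold change -0.79, adjusted p = 0.048). SR proteins and hnRNPs, which bind exons and guide splice site choice, were lower for 27 of 33, with 5 lower and 0 higher at an unadjusted p under 0.05 and a median of -0.12. Leaving out hTau.P301S replicate 1 gave a median of -0.10, with 8 lower. With that mouse kept, the median was -0.14 in mice without NR and -0.10 in mice with NR. Hnrnpm lay between 62.5 and 114 CPM (median 81.2) in hTau.P301S mice and between 96.5 and 138 CPM (median 111) in WT mice, and the ranges overlapped (log2 fold change -0.40, SE 0.12, adjusted p = 0.442). Hnrnph1 had a log2 fold change of -0.32 (adjusted p = 0.5), at -0.60 without NR and -0.05 with NR, and Tra2a one of -0.37 (adjusted p = 0.555), at -0.73 and -0.01. Their unadjusted interaction p-values were 0.00830 and 0.00651 (adjusted p = 0.558 for both). Hnrnpa1, also at an unadjusted p under 0.05, went the other way, at -0.17 without NR and -0.32 with NR. Core snRNP proteins were higher for 30 of 36 with a median of 0.18, and 3 were higher and 1 lower at an unadjusted p under 0.05. The 3 were Prpf19 (log2 fold change 0.27, adjusted p = 0.583), Sf3b4 (0.32, adjusted p = 0.488) and Snrpd1 (0.78, adjusted p = 0.579), and the 1 was Snrnp70, a protein of the U1 particle (-0.69, adjusted p = 0.429). Leaving out hTau.P301S replicate 1 gave a median of 0.02, with 4 higher and 5 lower, and with the sex covariate 1 was higher and 1 lower. Neuronal splicing regulators had none of 23 at an unadjusted p under 0.05 and a median of -0.03.

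Nuclear long noncoding RNAs were lower for 9 of 11, with 4 at an unadjusted p under 0.05 (6 without hTau.P301S replicate 1) and a median of -0.70. Malat1 lay between 45.7 and 219 CPM (median 125) in hTau.P301S mice and between 32.3 and 659 CPM (median 340) in WT mice, so the lowest level was that of a WT mouse (log2 fold change -1.51, adjusted p = 0.528). Neat1, the scaffold of paraspeckles, lay between 20.2 and 86.5 CPM (median 50.1) against 38.4 to 194 CPM (median 115), a log2 fold change of -1.21 (adjusted p = 0.396). Miat and Meg3 had log2 fold changes of -1.46 and -1.26. The median of the list was -1.36 without NR and -0.20 with NR.

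Several lists depended on hTau.P301S replicate 1 in direction or size. Cytosolic ribosomal protein genes were higher for 31 of 32 with a median of 0.60 and none at an unadjusted p under 0.05. Their summed level was 68300 CPM in that mouse and at most 11600 CPM in WT mice, and the median without it was -0.30, with 9 lower at an unadjusted p under 0.05. Genes of the respiratory chain in the nuclear genome went from 0.31 to -0.13 without it, with 3 lower at an unadjusted p under 0.05 in place of 0. Mitochondrially encoded genes were higher for 14 of 15, 3 at an unadjusted p under 0.05, with a median of 0.44 that was 0.14 without it. With the sex covariate the medians were 0.11 for the ribosomal, 0.12 for the respiratory chain and 0.30 for the mitochondrially encoded genes, and 1 gene of the last had an unadjusted p under 0.05.

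Lists of neuronal genes follow. Of 14 markers of hippocampal excitatory neurons, 12 of interneurons, 17 genes of glutamate receptors and scaffolds, 15 of GABA receptors and 17 of the presynaptic vesicle machinery, none had an unadjusted p under 0.05, and the medians lay between -0.02 and 0.06. Without hTau.P301S replicate 1, 3 presynaptic genes and 1 GABA receptor gene were higher at an unadjusted p under 0.05. Some medians near 0 averaged opposite signs, as for excitatory markers (0.45 without NR and -0.26 with NR) and interneuron markers (-0.17 and 0.31). The excitatory marker Slc17a7 had a log2 fold change of 0.10 (SE 0.35, adjusted p = 0.958), and the inhibitory marker Gad1 one of 0.03 (SE 0.22, adjusted p = 0.987). Immediate early genes, which respond to neuronal activity, had none of 15, and heat shock proteins none of 17. Genes of NAD synthesis and use had 3 of 24 lower and none higher, namely Sirt4, Nmnat3 and Slc25a51, and a median of 0.02. Without hTau.P301S replicate 1, 5 were lower and 2 higher. Sirt4, a mitochondrial sirtuin, had a log2 fold change of -0.56 (adjusted p = 0.287), and Nampt, the rate-limiting enzyme of NAD salvage, one of 0.10 (adjusted p = 0.874). DESeq2 over the same mice called Sirt4 (adjusted p = 0.0269).

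**Figure D5:**
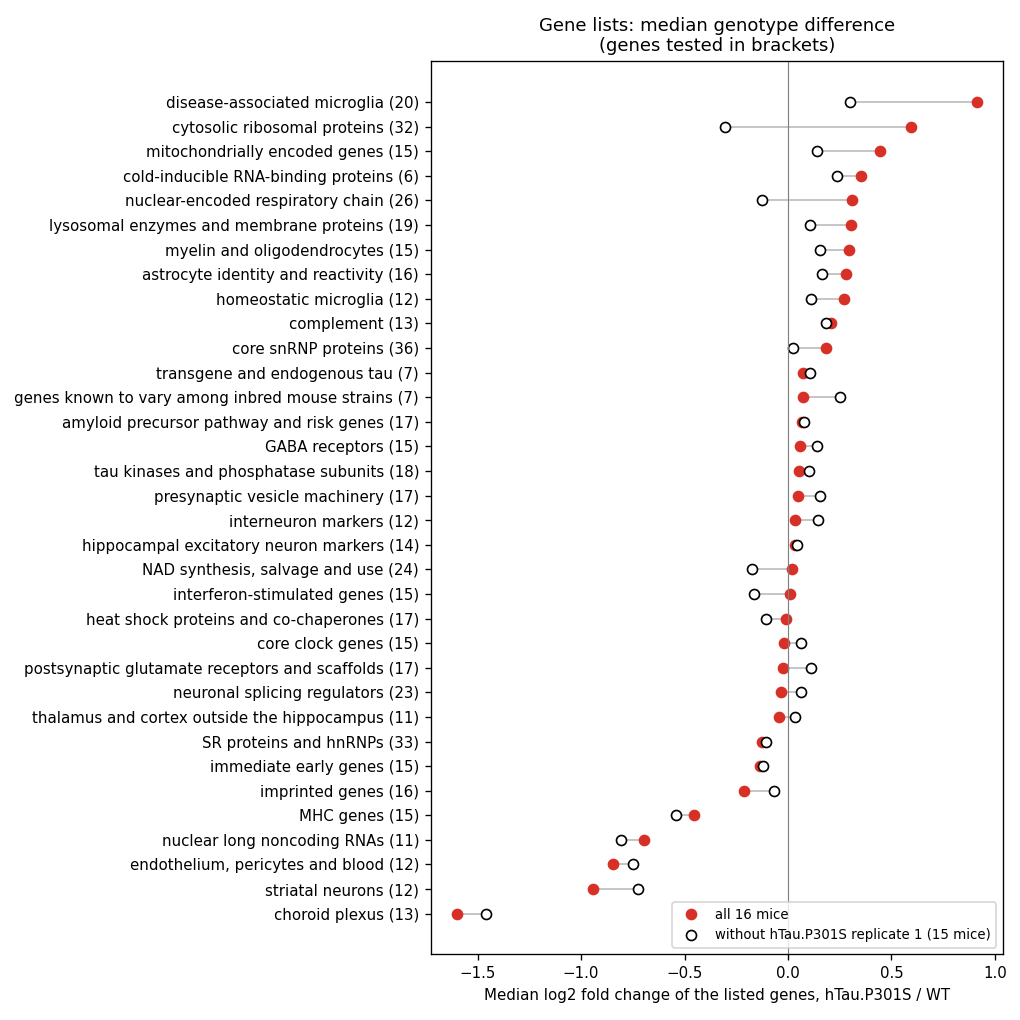
Median log2 fold change of hTau.P301S relative to WT over the tested genes of each list, for all 16 mice (filled) and without hTau.P301S replicate 1 (open), with the number of genes in brackets. Cytosolic ribosomal protein genes go from 0.60 to -0.30, disease-associated microglia genes from 0.91 to 0.30, and choroid plexus genes stay lowest at -1.60 and -1.46.

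Among the remaining lists, those of tau kinases and phosphatase subunits (median 0.05) and of the amyloid precursor pathway and risk genes (0.07) each had 2 genes at an unadjusted p under 0.05. In the first these were Ppp2r2a and Ppp2r5c, subunits of the phosphatase that removes phosphate from tau, with log2 fold changes of 0.28 (adjusted p = 0.442) and 0.20 (adjusted p = 0.638). In the second they were Clu, an extracellular chaperone, at 0.41 (adjusted p = 0.583), and the lipid transporter Abca7 at -0.42 (adjusted p = 0.543). The cold-inducible RNA-binding protein Rbm3 lay between 47.4 and 252 CPM (median 95.8) against 53.2 to 80.0 CPM (median 63.0), and its log2 fold change of 0.66 (adjusted p = 0.521) was 1.27 without NR and 0.05 with NR. Core clock genes had 1 of 15 at an unadjusted p under 0.05, imprinted genes 1 of 16, markers of thalamus and cortex outside the hippocampus 1 of 11, and genes known to vary among inbred mouse strains 1 of 7, H2-Ea-ps.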

How the data were processed

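Poly(A) RNA from hippocampi of 16 mice was sequenced. The authors trimmed the reads (FastQC and Trim Galore, per the labels), aligned them to mm10 with STAR and counted them per gene with RSEM, and the deposited values are raw counts without normalization. Whether counting used strand is not given in the sources used here. Groups and replicate numbers come from the labels. From the counts, edgeR 4.0.16 in R 4.3.3 (default low-count filter over the 4 groups, TMM, quasi-likelihood test, NR plus genotype) gave log2 fold changes, and p-values were adjusted by Benjamini-Hochberg. The study's methods name DESeq2 for pairs of groups, and DESeq2 1.42.0 and limma 3.58.1 served as alternatives. Scripts were tested on simulated data. Parents were the best BLAST 2.17.0 match among GENCODE protein-coding transcripts of the genes tested. Symbols (54409 IDs matched), positions and types come from the GENCODE annotation or from a table of gene names. Named genes were Thy1, Mapt and Eva1c, up to 15 called genes in each direction without overlap and with the largest change, the 5 genes with the smallest p in each direction, the first 2 and the called members of each list, and the 3 called genes with the smallest interaction p. Genes named beyond this rule were chosen after their values were seen. The members and lists were chosen with earlier results of these data known. Nothing states separate cultures or litters, so p-values measure the spread between these mice. Genes with few counts carry more counting error. Alternatives changed the test, normalization, filter, covariates and mice. Splicing was not analysed here. Some genes are not reported here.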

Additional observations from a re-analysis of the deposited data

Results flagged for a closer look

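In groups of 8 mice, a value was singled out when its gap to the nearest mouse was above the 95% critical share of the group's range in Dixon's test. Chance does this in about 1 in 20 groups, and 21 of 54 values were singled out, 15 of them in hTau.P301S replicate 1. That mouse had 14.43% mitochondrial counts, 19467 genes detected and a Mapt level of 188 CPM, all far from the other hTau.P301S mice. It was the highest of its genotype for Thy1 (1640 CPM), Rpsa-ps10 (1651 CPM), Gm13394 (568.6 CPM), Rps26-ps1 (366.2 CPM), Gm6969 (128 CPM), Gm10020 (91.54 CPM), Gm5436 (38.12 CPM), Rpl15-ps2 (17.61 CPM), Gm3226 (12.31 CPM) and Gm10704 (11.54 CPM). It was the lowest for Gm7335 (3.163 CPM) and Gm9855 (2.137 CPM). The part of its RNA quality in these levels was not tested.

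The other values belonged to other mice. The total of 21915362 counts was that of hTau.P301S + NR replicate 1. In WT replicate 2, 6.456% of counts were mitochondrial and Gm5436 was at 2.129 CPM, the highest of the WT mice for both. Eva1c was lowest among WT mice in WT + NR replicate 2 at 1.639 CPM, and A530016L24Rik in WT replicate 4 at 0.1082 CPM. H2-Q6 was highest among hTau.P301S mice in hTau.P301S + NR replicate 4 at 1.506 CPM.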

How the results depend on the processing

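The 21 calls became 105 with DESeq2 (47 higher and 58 lower, 19 of the 21 among them), 138 with limma voom and sample weights (66 higher and 72 lower, all 21 among them), 13 with the Xist and Ddx3y pattern as a covariate, 36 within mice without NR and 7 within mice with NR. DESeq2 gave no adjusted p for 951 of the 17555 genes. Of the 21, it did not call Rpsa-ps10 and Gm10020, with log2 fold changes of 3.66 and 6.40. Among genes with at least 10 counts in every mouse there were 11 calls. Only 11 of the 21 were tested there, and all 11 kept their call. Leaving out 1 mouse gave 16 to 57 calls, 57 without hTau.P301S replicate 1 and 46 without WT + NR replicate 1. Genes without overlap, 34 over all mice, numbered 36 to 75. Of settings chosen after seeing the data, the sex pattern as covariate without hTau.P301S replicate 1 gave 40 calls, DESeq2 without that mouse 210, DESeq2 with the sex pattern 63, mice with Xist above Ddx3y 11, mice with Ddx3y above Xist 0, and pseudogene counts added to the parents 7. The 13 called pseudogenes (61.9% of calls) became 22 with DESeq2 (21%). For the genotype effect without NR, 36 calls became 23 with the sex pattern, 494 with DESeq2 and 15 to 103 without 1 mouse (103 without WT replicate 2). With NR, 7 became 1, 21 and 1 to 13. The interaction, with 0 calls, gave 18 with DESeq2 and 0 to 1 without 1 mouse. Rpsa went to -0.57 (DESeq2 without hTau.P301S replicate 1), Ddx3y to -1.21 (DESeq2 with the sex pattern) and Gapdh to 4.24 (pseudogene counts added, which makes it the sum with Gm13394). For the other changes the cause was not tested.

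Same-numbered mice are different animals, and their deviations did not move together (24 pairs, correlation -0.54 to 0.42, 8 above 0.1). A replicate block gave 22 calls over all mice, 23 without NR and 3 with NR. Normalization with DESeq2-type size factors (21 calls), no filter (24), no mitochondrial genes (20) and NR ignored (21) stayed within 1.5 times. Leaving out 1 mouse ended the call of C1s1 in 12 of 16 fits, A530016L24Rik in 11, Gm3226 in 8, and Tdg and AC160336.1 in 1 each. Without the filter C1s1 and A530016L24Rik were not called. Depth limits genes with few counts, such as C1s1.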
